A study of Mus musculus with 12 samples.

Results

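The genes described are 35 listed vascular genes, 26 of endothelial cells and 9 of mural cells, picked out by symbol from the 55335 gene identifiers of the count tables. They were read in subcutaneous tumors that CT26, a mouse colorectal cancer line, formed in mice, and in the same line in culture. There were 3 libraries in each of 4 groups. Midostaurin tumors received midostaurin, an inhibitor of several kinases, at 40 mg/kg from day 7 after inoculation for 2 weeks, and vehicle tumors received vehicle. Midostaurin cells had 1 µM of the drug for 48 h, and DMSO cells had the solvent. The cultured cells are labelled WT, and the strain and age of the host mice are not given in the sources used here. The comparison of tumors asks whether vessel genes differ with the drug, and the cultured cells show which of these genes the cancer cells express themselves. The labels do not say whether the libraries of a group came from separate animals or cultures, so p-values measure the spread between these libraries.

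Endothelial cells line blood vessels. They grow and sprout under VEGF and its receptors, mature under angiopoietin and the Tie receptors, and are held together by junction proteins such as VE-cadherin. Mural cells, the pericytes of small vessels and the smooth muscle of larger ones, wrap the endothelial tube, and in tumors this cover is often loose and incomplete. In RNA from a whole tumor, fewer cells of a type and less RNA per cell cannot be told apart.

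The total counts were 33399701 to 48109497 per tumor library and 34787389 to 38144039 per cell library. The libraries of a group were not alike. Midostaurin tumor 2 had the lowest level of 15 of the 26 endothelial genes among the 6 tumors and of 7 of the 8 mural genes tested. Vehicle tumor 1 had the highest level of 17 of the 26 endothelial and 5 of the 8 mural genes. Other cell types differed between the same libraries. Of 6 red cell genes, summed levels were 16.6, 115 and 57.1 CPM (each count set against the TMM-scaled total of its library) in midostaurin tumors 2, 3 and 4, against 1956, 31.7 and 447 CPM in vehicle tumors 1, 2 and 3. Skin keratinocyte genes summed to 752 CPM in vehicle tumor 2 and to 1.48 to 1.76 CPM in the other 5 tumors. Numbers given below without a library name follow this order of libraries.

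The cancer cells in culture gave little or no signal for most of these genes. Of the 26 endothelial genes, 19 stayed under 1 CPM in every cell library, and so did 8 of the 9 mural genes. The 8 genes that reached 1 CPM in some cell library were Flt1, Vwf, Eng, Ecscr, Angpt2, Apln and Esm1 of the endothelial list and Des of the mural list. Many of the listed genes have enough counts for a test in the tumors alone, so vehicle tumors were set against DMSO cells for the 11 genes with enough counts in the cell libraries. Of 9 such endothelial genes, 7 were higher in vehicle tumors (edgeR, adjusted p under 0.05), and of 2 such mural genes 1, Cspg4, where 24.5% of all genes tested were higher. The endothelial exceptions were Vwf, at 0.10 ± 0.58 on the log2 scale (SE; edgeR, adjusted p = 0.901), and Angpt2, at 0.91 ± 0.67 (adjusted p = 0.290). The mural exception was Des, at 2.16 ± 0.96 (adjusted p = 0.0905, edgeR). Tumors and cells are separate experiments, so tissue and experiment cannot be told apart in these differences.

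Genes with no count in the 3 DMSO cell libraries can be given only a lower bound. Against a floor of 3 counts per library, Tie1, a receptor of the Tie family, was at least 131-fold higher in vehicle tumors, and Robo4, a guidance receptor of endothelium, at least 124-fold higher. Cldn5, a claudin of the tight junction, was at least 45.4-fold higher and Flt4, a VEGF receptor of lymphatic and sprouting endothelium, at least 38.4-fold higher. Erg, an ETS factor of endothelial identity, was at least 27.8-fold higher. Of the mural genes, the channel subunit genes Abcc9 and Kcnj8 were at least 42.3-fold and 35.3-fold higher. These bounds cover counting error only.

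**Figure D1:**
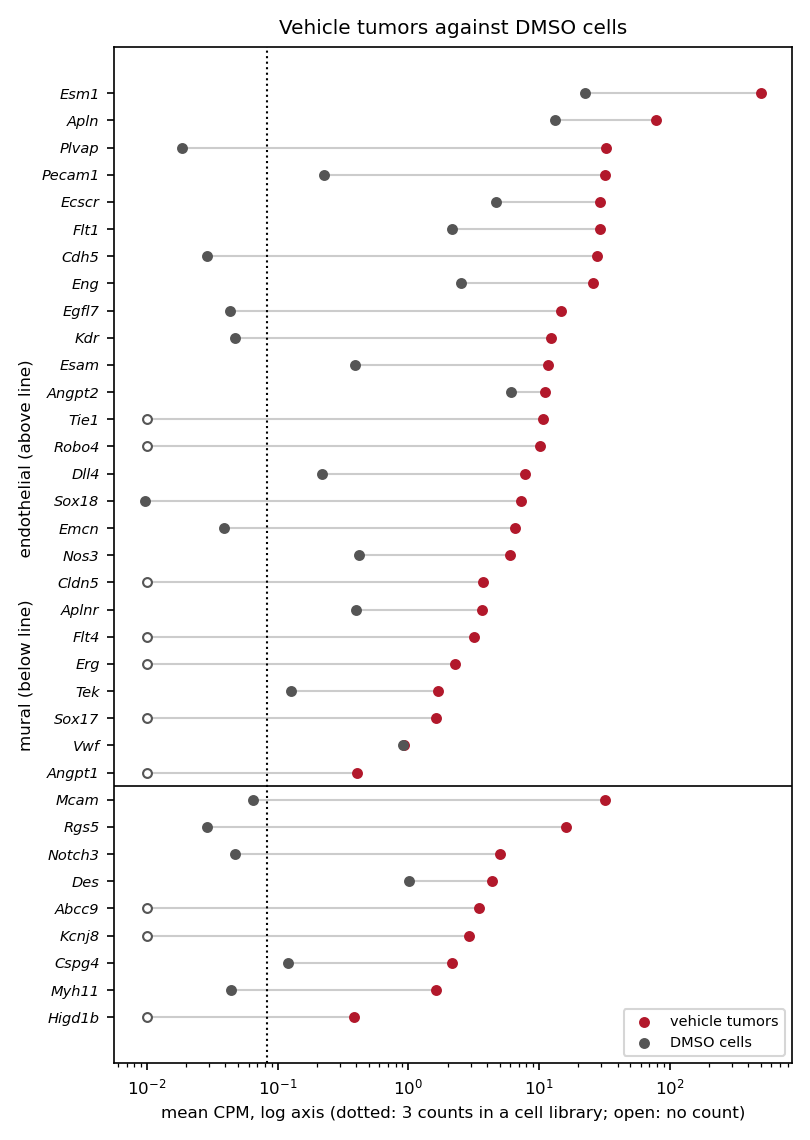
Mean CPM (log axis) of each of the 35 genes in vehicle tumors (red) and DMSO cells (grey), n = 3 libraries each, where the dotted line marks 3 counts in a cell library and open symbols at the left edge stand for genes with no count. Most genes lie far to the left in cells, while Esm1, Apln, Angpt2, Ecscr, Eng, Flt1 and Des are above 1 CPM in both.

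No difference between midostaurin and DMSO cells was detectable in these genes. With edgeR 0 of 14538 genes passed in cells (0%), and 0.516% had an unadjusted p under 0.05. Of the 11 listed genes with enough counts for the test, 0 had an unadjusted p under 0.05, and 0 were called by DESeq2, by limma-voom or with the replicate number as a block, although the block called 8 other genes. For Esm1, Apln and Angpt2 the levels in culture followed the number of the library. Esm1 measured 49.1, 8.04 and 8.50 CPM in midostaurin cells 1, 2 and 3, against 50.8, 9.60 and 7.18 CPM in DMSO cells 1, 2 and 3. Apln followed the same pattern, with 30.4, 5.08 and 4.23 CPM in midostaurin cells and 30.7, 4.75 and 4.27 CPM in DMSO cells. Angpt2 went the other way, with 1.60, 9.29 and 6.83 CPM in midostaurin cells and 1.29, 8.80 and 8.35 CPM in DMSO cells. Libraries numbered 1 stood apart in both groups, so for these 3 genes the level in culture differed by several fold between control libraries alone.

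Levels of different genes were set side by side per length of transcript. In vehicle tumors, Esm1 had the highest level of the 35 genes, 239 ± 65.2 CPM per kilobase of exon (mean ± SD, n = 3), followed by Apln at 24.9 ± 8.84, Ecscr at 16.8 ± 0.478 and Plvap at 16.3 ± 8.23. Esm1 and Apln are tip cell genes, but both were also read in the cultured cancer cells, and how much of their tumor level comes from vessels was not tested. Mcam stood highest of the mural genes, at 9.50 ± 3.69 CPM per kilobase. The pan-endothelial genes Cdh5, Eng and Pecam1 lay within their spread of each other, at 6.64 ± 2.55, 6.44 ± 1.82 and 5.14 ± 1.74. The lowest were Angpt1 at 0.0774 ± 0.0849 and Vwf at 0.0580 ± 0.0355.

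The start regions of a few of these genes are shown for their letters. ETS factors such as Erg bind sites with a GGAA core, and the search was for AGGAAG on both strands in the 250 bases before the start of transcription in RefSeq (GRCm38.p6). RefSeq's table held 21 of the 35 genes. Of 14 endothelial genes, 7 held the letters, namely Apln, Egfl7, Emcn, Eng, Flt1, Robo4 and Tie1. Of 7 mural genes, 0 held them, and of all 27025 promoters 29.2% did. GGGCGG, the core of Sp factor sites, was held by 7 of 14 endothelial, 5 of 7 mural and 32.9% of all promoters. A match describes letters and not a bound site. Tie1 (chr4:118489850-118490099, minus strand) and Robo4 (chr9:37401722-37401971, plus strand) are shown as genes without a count in DMSO cells that hold the letters. Esm1 (chr13:113209409-113209658, plus strand) and Cspg4 (chr9:56864854-56865103, plus strand), 1 gene of each list for which results are given below, hold none. Nos3 was not among the 21 genes in the table. Gene positions given elsewhere come from a GENCODE annotation of mm10. There Tie1 starts at 118490061, Robo4 at 37401897 and Cspg4 at 56865033, so their windows reach into the gene by that annotation. For Des, Flt4 and Notch3 the bases after the RefSeq start were not found near a GENCODE transcript start. Capitals mark AGGAAG or its reverse complement.
Tie1: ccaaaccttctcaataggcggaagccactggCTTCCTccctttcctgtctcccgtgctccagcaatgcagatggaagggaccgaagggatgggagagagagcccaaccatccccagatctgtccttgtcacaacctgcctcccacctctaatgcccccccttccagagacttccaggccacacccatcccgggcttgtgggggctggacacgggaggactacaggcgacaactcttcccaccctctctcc
Robo4: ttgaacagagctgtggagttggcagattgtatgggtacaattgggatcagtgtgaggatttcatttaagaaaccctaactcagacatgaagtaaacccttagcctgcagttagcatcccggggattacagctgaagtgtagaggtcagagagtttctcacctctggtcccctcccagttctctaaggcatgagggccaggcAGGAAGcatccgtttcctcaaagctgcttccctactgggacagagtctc
Esm1: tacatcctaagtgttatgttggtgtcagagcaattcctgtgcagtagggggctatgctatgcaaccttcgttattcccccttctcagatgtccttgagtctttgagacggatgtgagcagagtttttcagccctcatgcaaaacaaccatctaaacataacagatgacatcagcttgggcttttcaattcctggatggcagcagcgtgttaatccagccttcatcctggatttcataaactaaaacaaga
Cspg4: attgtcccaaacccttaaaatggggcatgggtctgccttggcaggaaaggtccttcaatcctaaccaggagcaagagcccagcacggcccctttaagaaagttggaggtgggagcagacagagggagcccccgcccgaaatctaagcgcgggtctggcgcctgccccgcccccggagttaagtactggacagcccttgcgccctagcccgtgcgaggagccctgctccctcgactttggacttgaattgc

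Between midostaurin and vehicle tumors the endothelial genes stayed short of the threshold, and general markers such as Pecam1 and Cdh5 overlapped fully between the groups. With edgeR 0 of the 26 endothelial genes passed, where 7 of 16094 genes did (0.0435%). An unadjusted p under 0.05 was reached by Esm1, Nos3 and Ecscr, 3 of 26, all higher, where 19.9% of all genes had one and 10.5% were higher with one. DESeq2 called 2, where it called 9.84% of genes, and limma-voom 0. The log2 fold change was above 0 for 10 and below 0 for 16, where 52.1% of all genes were below 0, with a median of -0.17 beside -0.01 over all genes tested. This median rests on single tumors. Without vehicle tumor 1 it was 0.22 with 8 of 26 below 0, and without midostaurin tumor 2 it was -0.00292 with 14 of 26 below 0. Without both, an alternative chosen after seeing the data, it was 0.44 with 4 of 26 below 0. Of all genes, 49.1%, 52% and 51% lay below 0 in these fits. Groups did not overlap for 4 of 26, which is below the 27.2% of all genes.

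**Figure D2:**
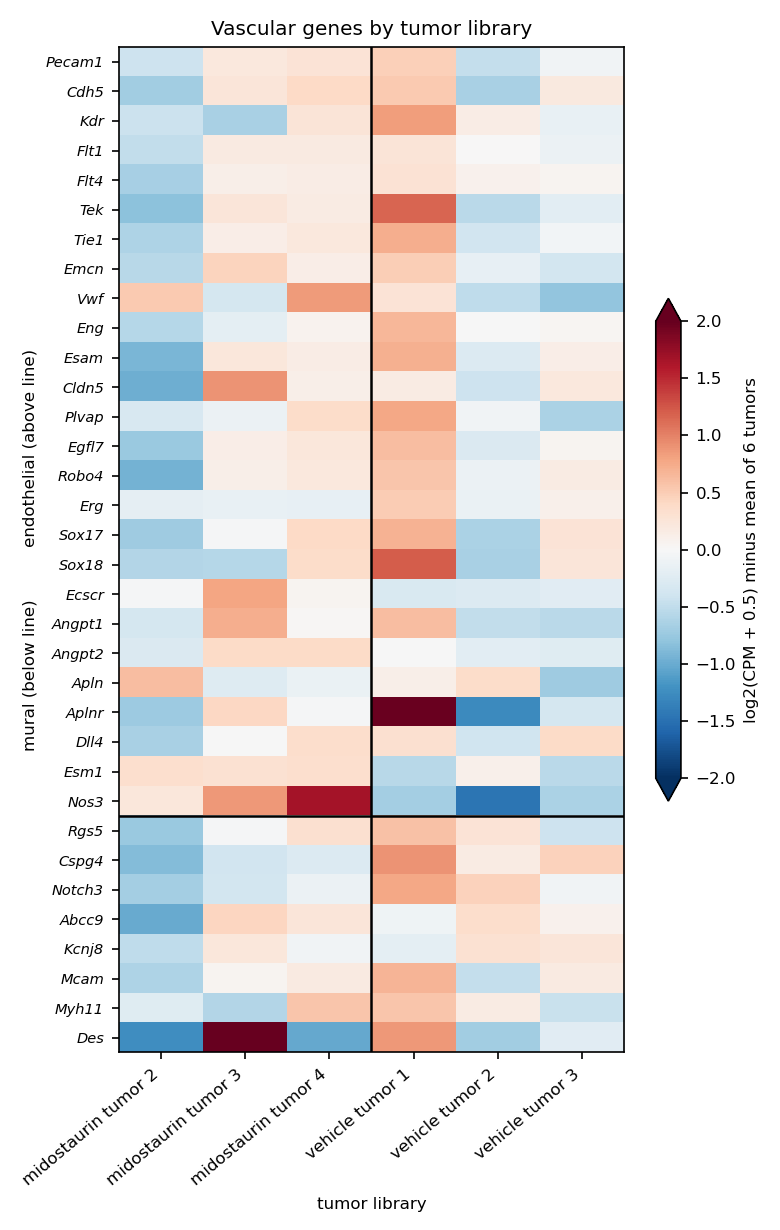
Heat map of the 34 tested genes (rows) in the 6 tumors (columns, midostaurin then vehicle), coloured by log2(CPM + 0.5) minus the mean of the 6 tumors, with the scale ending at 2 either way. Midostaurin tumor 2 is low and vehicle tumor 1 high across most rows, while Nos3 and Esm1 are higher in each midostaurin tumor.

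Among genes of the endothelial surface and junctions, Pecam1, the adhesion molecule that marks all endothelium (ENSMUSG00000020717, mm10 chromosome 11, 106654217 to 106750628), measured 23.5, 36.6 and 38.1 CPM in midostaurin tumors, against 43.8, 22.4 and 29.8 CPM in vehicle tumors. Cdh5, which encodes VE-cadherin, measured 15.8, 30.7 and 34.6 CPM in midostaurin tumors, against 37.5, 16.4 and 29.9 CPM in vehicle tumors. The groups overlapped fully for both genes. Their log2 fold changes were 0.03 ± 0.28 for Pecam1 (95% interval -0.63 to 0.69) and -0.05 ± 0.37 for Cdh5 (-0.93 to 0.84). Eng, a TGF-beta co-receptor of proliferating endothelium, measured 14.4, 18.7 and 22.6 CPM in midostaurin tumors, against 34.5, 21.4 and 22.2 CPM in vehicle tumors. Its groups overlapped through midostaurin tumor 4 alone, and its log2 fold change was -0.49 ± 0.24 (SE; edgeR gave an adjusted p of 0.308), or -0.22 without vehicle tumor 1.

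The remaining surface genes had overlapping groups except Ecscr. On the log2 scale Emcn, the sialomucin endomucin, differed by 0.03 ± 0.35, Cldn5 by 0.21 ± 0.51, and Plvap, a protein of fenestral diaphragms, by -0.14 ± 0.36. Esam, an adhesion molecule of tight junctions, lay at -0.36 ± 0.38 and Robo4 at -0.37 ± 0.35. Each of these values was close to its standard error or smaller. Plvap reached 50.5 CPM in vehicle tumor 1 and lay between 18.7 and 38.0 CPM in the other 5 tumors.

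Ecscr, an endothelial regulator of chemotaxis and apoptosis (ENSMUSG00000073599, mm10 chromosome 18, 35713086 to 35722356), measured 34.7, 61.4 and 36.9 CPM in midostaurin tumors, against 28.5, 29.4 and 30.2 CPM in vehicle tumors. The midostaurin tumors all lay above the vehicle tumors, midostaurin tumor 3 far above. Its log2 fold change was 0.59 ± 0.22 (95% interval 0.08 to 1.10, adjusted p = 0.200, edgeR), and 0.29 without midostaurin tumor 3. Cultured cells had 3.61 to 5.53 CPM of Ecscr.

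The 6 receptor genes had log2 fold changes below 0, where 52.1% of all genes did, and 0 of 6 had an unadjusted p under 0.05, where 19.9% of all genes did. Without vehicle tumor 1, 2 of the 6 lay below 0, Kdr and Flt4. Kdr, the main signalling receptor for VEGF (ENSMUSG00000062960, mm10 chromosome 5, 75932827 to 75978458), measured 7.08, 6.00 and 11.7 CPM in midostaurin tumors, against 17.9, 10.8 and 8.69 CPM in vehicle tumors. Its groups overlapped, and the log2 fold change was -0.59 ± 0.35 (SE, adjusted p = 0.388, edgeR). It was -0.23 without vehicle tumor 1 and -0.93 without midostaurin tumor 4. Flt1, a decoy and signalling receptor for VEGF, differed less, with 19.9, 32.0 and 31.9 CPM in midostaurin tumors, against 33.9, 28.2 and 25.9 CPM in vehicle tumors (log2 fold change -0.07 ± 0.20). The ratio of Flt1 to Kdr, each per kilobase, was 1.88, 3.57 and 1.82 in midostaurin tumors and 1.27, 1.74 and 1.99 in vehicle tumors, with overlap. Flt4 lay at -0.28 ± 0.30 and Tie1, an orphan partner of Tek, at -0.23 ± 0.35.

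Tek, the angiopoietin receptor, and Aplnr, the apelin receptor, were high in vehicle tumor 1. Tek measured 0.479, 1.54 and 1.44 CPM in midostaurin tumors, against 3.38, 0.687 and 1.00 CPM in vehicle tumors. Aplnr measured 0.958, 2.73 and 1.88 CPM in midostaurin tumors, against 9.03, 0.502 and 1.39 CPM in vehicle tumors. Both log2 fold changes change sign without vehicle tumor 1 (Tek -0.55 ± 0.70 with it and 0.46 without it, Aplnr -0.98 ± 0.98 and 0.97).

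Among the ligands, Angpt2, an angiopoietin that destabilises vessels, measured 10.0, 16.2 and 16.2 CPM in midostaurin tumors, against 12.3, 10.6 and 10.3 CPM in vehicle tumors. A pair of midostaurin tumors lay above all vehicle tumors and the third below them (log2 fold change 0.35 ± 0.21, adjusted p = 0.388, edgeR). Apln, the ligand of Aplnr, lay at 0.14 ± 0.33, with 121, 66.0 and 71.4 CPM in midostaurin tumors and 85.1, 102 and 47.7 CPM in vehicle tumors. Angpt1, the stabilising angiopoietin made mainly by mural cells, had 6 to 37 counts a tumor and a log2 fold change of 0.47 ± 0.87. Dll4, a Notch ligand of tip cells, lay at -0.20 ± 0.33, with overlap. The ratio of Angpt2 to Tek per kilobase was 26.7, 13.4 and 14.3 in midostaurin tumors and 4.63, 19.7 and 13.1 in vehicle tumors.

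The 3 transcription factor genes had log2 fold changes below 0, where 52.1% of all genes did. Without vehicle tumor 1 Sox17 was at 0.10, Sox18 at -0.0539 and Erg at -0.19. Erg measured 1.66, 1.73 and 1.69 CPM in midostaurin tumors, against 3.01, 1.74 and 2.14 CPM in vehicle tumors. The groups did not overlap, although the highest midostaurin and the lowest vehicle tumor were nearly equal, and the log2 fold change was -0.44 ± 0.27 (SE, adjusted p = 0.409, edgeR). Sox18 lay at -0.71 ± 0.54 and Sox17 at -0.34 ± 0.56, both with overlap. Sox17 and Sox18 are SoxF factors of arterial and lymphatic endothelium.

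Esm1, Nos3 and Ecscr were the endothelial genes with an unadjusted p under 0.05. Esm1 encodes endocan, a secreted proteoglycan induced by VEGF in tip cells (ENSMUSG00000042379, mm10 chromosome 13, 113209659 to 113218098). It measured 777, 762 and 781 CPM in midostaurin tumors, against 421, 660.0 and 425 CPM in vehicle tumors. The 3 midostaurin tumors lay close together and above each vehicle tumor. Esm1 had a log2 fold change of 0.62 ± 0.18 (95% interval 0.19 to 1.05, adjusted p = 0.142, edgeR), and DESeq2 gave an adjusted p of 0.0134. The tumors exceeded cultured cells, with a log2 fold change of vehicle tumors over DMSO cells of 4.54 ± 0.91 (adjusted p = 0.00250, edgeR).

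Nos3 encodes endothelial nitric oxide synthase, which makes the vasodilator nitric oxide (ENSMUSG00000028978, mm10 chromosome 5, 24364810 to 24384474). It measured 13.4, 21.2 and 37.0 CPM in midostaurin tumors, against 6.93, 3.81 and 7.16 CPM in vehicle tumors. The lowest midostaurin tumor was above the highest vehicle tumor. At 2.00 ± 0.41 (95% interval 1.02 to 2.98), its log2 fold change was the largest of the 34 genes tested, and the adjusted p was 0.0936 with edgeR and 2.16e-05 with DESeq2. Without 1 tumor at a time it lay between 1.53 and 2.28.

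Nos3 overlaps 2 genes on the opposite strand. The exons of Atg9b, an autophagy gene, cover 294 bases (7.1%) and those of the antisense RNA Gm15587 1040 bases (25.2%) of its exon length. Atg9b measured 195, 155 and 215 CPM in midostaurin tumors, against 39.8, 91.0 and 158 CPM in vehicle tumors. Gm15587 measured 2.55, 0.848 and 0.961 CPM in midostaurin tumors, against 0.296, 0.159 and 0.205 CPM in vehicle tumors. Both neighbours were thus higher on average in midostaurin tumors too. The library kit keeps strand, but the strand setting of the counting is not given in the sources used here. Over the shared bases, reads of Nos3 and of these genes therefore cannot be told apart here. The part of these genes in the Nos3 result was not tested.

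Vwf, the clotting factor carrier stored in endothelium, measured 1.97, 0.848 and 2.61 CPM in midostaurin tumors, against 1.58, 0.714 and 0.502 CPM in vehicle tumors (log2 fold change 0.96 ± 0.56, adjusted p = 0.387, edgeR). Cultured cells had 0.439 to 1.42 CPM, a range that overlaps with that of the tumors. Egfl7, a secreted factor of vessel tubes, lay at -0.26 ± 0.33.

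**Figure D3:**
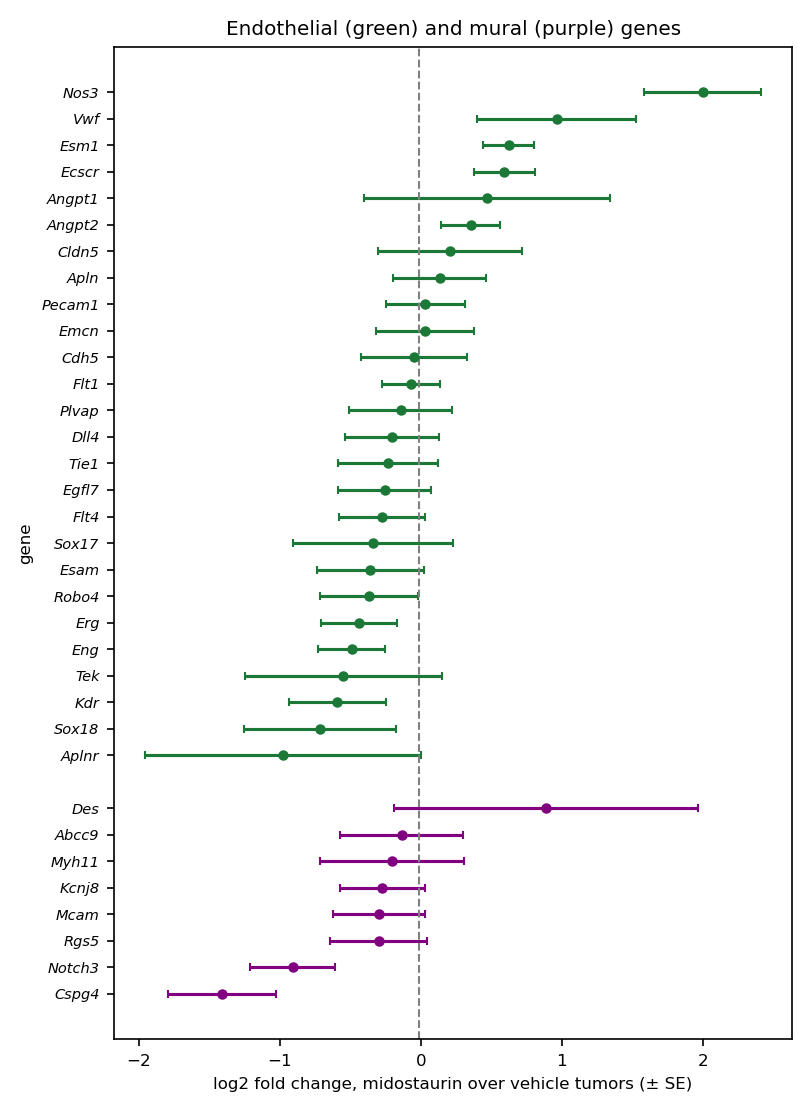
Log2 fold change of midostaurin over vehicle tumors with its standard error for the 34 genes tested, endothelial and mural apart, with a dashed line at the median of all genes. Nos3 lies highest at 2.00 and Cspg4 lowest at -1.41, and the error bars of most other genes cross the dashed line.

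Of the mural genes, Cspg4 and Notch3 were lower in each midostaurin tumor than in any vehicle tumor, short of the threshold, and the rest overlapped. With edgeR 0 of the 8 tested mural genes passed, and Higd1b had too few counts for the test. An unadjusted p under 0.05 was reached by 2 of 8, both lower, where 9.43% of all genes were lower with such a p. DESeq2 called 1, where it called 9.84% of all genes, and limma-voom 0. The log2 fold change was below 0 for 7 of 8, against 52.1% of all genes, with a median of -0.28 beside -0.01 over all genes. Without vehicle tumor 1 and midostaurin tumor 2 together the median of the same 8 genes was 0.16, so the median rests on these 2 tumors. Of the 8, 3 then lay below 0, where 51% of all genes did. Higd1b, which had enough counts in that fit, lay at -0.52 and is left out of these values. Groups did not overlap for 2 of 8, where 27.2% of all genes did not.

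Cspg4 encodes NG2, a proteoglycan on pericytes (ENSMUSG00000032911, mm10 chromosome 9, 56865033 to 56899870). It measured 0.504, 0.908 and 1.02 CPM in midostaurin tumors, against 2.91, 1.56 and 2.03 CPM in vehicle tumors, which is 20, 30 and 49 counts against 118, 59 and 89. Every midostaurin tumor was below every vehicle tumor. Cspg4 had a log2 fold change of -1.41 ± 0.38 (95% interval -2.32 to -0.50, adjusted p = 0.127, edgeR), and DESeq2 gave an adjusted p of 0.0288. It lay between -1.62 and -1.13 without 1 tumor at a time. Midostaurin cells had 0 to 0.363 CPM and DMSO cells 0 to 0.361 CPM.

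Notch3 encodes the Notch receptor of mural cells (ENSMUSG00000038146, mm10 chromosome 17, 32120820 to 32166852). It measured 2.07, 2.69 and 3.30 CPM in midostaurin tumors, against 6.56, 5.18 and 3.42 CPM in vehicle tumors. The groups did not overlap, although the nearest pair differed by little. The log2 fold change was -0.91 ± 0.30 (95% interval -1.63 to -0.19, adjusted p = 0.175, edgeR). DESeq2 gave an adjusted p of 0.0709.

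The other pericyte genes had overlapping groups. Rgs5, a regulator of G protein signalling in pericytes, measured 8.14, 13.7 and 17.5 CPM in midostaurin tumors, against 21.1, 16.8 and 10.3 CPM in vehicle tumors (log2 fold change -0.30 ± 0.34). Mcam, an adhesion molecule of mural cells and endothelium, measured 17.8, 28.7 and 31.4 CPM in midostaurin tumors, against 44.4, 19.6 and 31.4 CPM in vehicle tumors (-0.29 ± 0.33). Abcc9 and Kcnj8, which encode subunits of the same potassium channel, lay at -0.13 ± 0.44 and -0.27 ± 0.30. Higd1b, a pericyte gene, had 4, 6 and 12 counts in midostaurin tumors, against 21, 17 and 8 in vehicle tumors.

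The smooth muscle genes were uneven. Myh11, the smooth muscle myosin heavy chain, lay at -0.20 ± 0.51. Des, which encodes the muscle filament desmin, measured 1.36, 21.3 and 1.65 CPM in midostaurin tumors, against 7.55, 2.22 and 3.26 CPM in vehicle tumors (log2 fold change 0.89 ± 1.08). Its value rests on midostaurin tumor 3 and was -1.52 without it. Genes of skeletal muscle, where Des is also expressed, summed to 2.52, 73.9 and 3.07 CPM in midostaurin tumors, against 43.0, 4.81 and 8.73 CPM in vehicle tumors. They were highest in the same midostaurin tumor, and their part in the Des value was not tested.

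**Figure D4:**
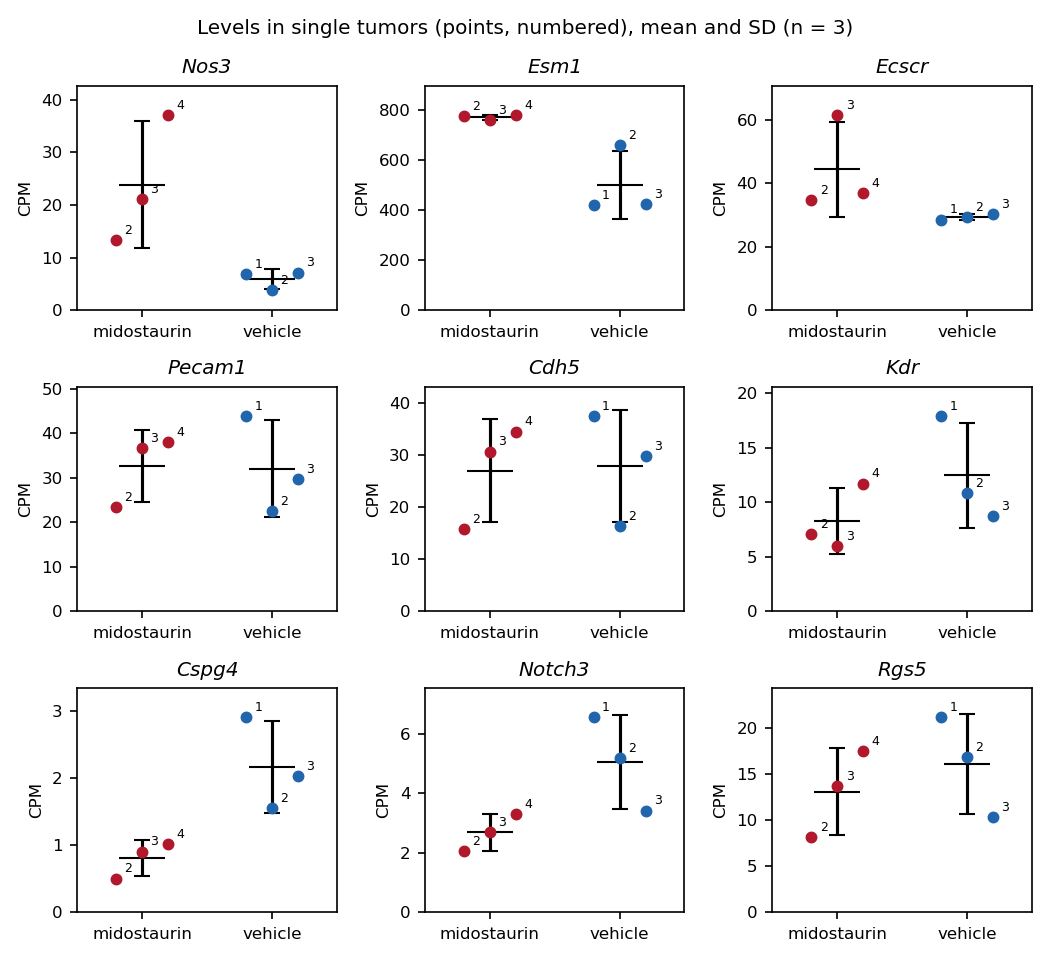
CPM of 9 genes in each of the 6 tumors (points), with the mean and SD of each group (n = 3), midostaurin tumors left and vehicle tumors right in each panel. Nos3 and Esm1 are higher in each midostaurin tumor, Cspg4 and Notch3 lower, and Pecam1, Cdh5 and Kdr overlap.

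The listed genes were compared by the ratio of the mural to the endothelial sum of levels per kilobase. It was 0.0188, 0.0404 and 0.0325 in midostaurin tumors, against 0.0679, 0.0326 and 0.0516 in vehicle tumors, so that the groups overlapped. Esm1 makes up most of the endothelial sum, so the ratio mainly sets mural genes against Esm1. Esm1 was higher in each midostaurin tumor, which lowers the ratio there, and was also read in the cultured cancer cells.

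Further vascular lists were read in the same fit, in which 19.9% of all genes had an unadjusted p under 0.05. DESeq2 called 9.84% of all genes. Of 28 other endothelial genes tested, 25 lay below 0 and 3 above, where 52.1% of all genes lay below 0, with a median of -0.34, and 0 passed with edgeR (3 with an unadjusted p under 0.05). Cavin2, a caveolar coat gene, lay at -0.64 ± 0.15 on the log2 scale (edgeR, adjusted p = 0.104), Lyl1, a blood and endothelial factor, at -0.93 ± 0.39, and Ly6c1 at 0.79 ± 0.27. Cultured cells had 118 CPM of Cavin2 in both groups. Of 20 other mural genes tested, 14 lay below 0, with a median of -0.36, and 0 passed (2 with an unadjusted p under 0.05). Ndufa4l2, a mitochondrial subunit gene of pericytes, lay at -2.44 ± 0.68, Acta2, smooth muscle actin, at -0.87 ± 0.53, Mylk, the myosin light chain kinase, at -0.52 ± 0.30, Cald1, caldesmon, at 0.41 ± 0.14 and Pdgfrb, the PDGF receptor of pericytes, at 0.21 ± 0.16. Without vehicle tumor 1 the medians of the endothelial and the mural list were -0.0779 and 0.00816, and without it and midostaurin tumor 2 they were 0.0533 and 0.0470. DESeq2 called 2 genes of each list and limma-voom 0. Summed over all genes found, the endothelial list had 855 to 1430 CPM in DMSO cells and 1685 to 1937 CPM in vehicle tumors. The mural list had 625 to 904 CPM in DMSO cells and 558 to 649 CPM in vehicle tumors. Cultured cancer cells thus express genes of both lists, and how much of the tumor levels comes from vessels was not tested.

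Of 38 genes of angiogenic signals and Notch, 19 lay above and 19 below 0, with a median of 0.01. With edgeR 0 passed, and 10 had an unadjusted p under 0.05, 6 higher and 4 lower, where 19.9% of all genes had one. DESeq2 called 6, where it called 9.84% of all genes, and limma-voom 0. Nrp2, a VEGF co-receptor, measured 379, 381 and 391 CPM in midostaurin tumors, against 268, 286 and 294 CPM in vehicle tumors (log2 fold change 0.44 ± 0.07, adjusted p = 0.0841, edgeR). Acvrl1, a BMP receptor, lay at 0.65 ± 0.14 and Unc5b, a netrin receptor, at 0.77 ± 0.19. Vegfa itself measured 371, 241 and 287 CPM in midostaurin tumors, against 185, 269 and 135 CPM in vehicle tumors, with overlap (0.61 ± 0.27, adjusted p = 0.264, edgeR). Cultured cells had 389.5 CPM with midostaurin and 386 CPM with DMSO. Pdgfb, the endothelial signal to pericytes, lay at -0.12 ± 0.32.

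Thbs2, which encodes thrombospondin 2, a matrix inhibitor of angiogenesis, was the gene of these lists that passed with edgeR. It rose in midostaurin tumors, with 582, 776 and 471 CPM against 123, 106 and 148 CPM in vehicle tumors (log2 fold change 2.28 ± 0.21, adjusted p = 0.0377, edgeR). The log2 fold change was 2.08 to 2.44 without 1 tumor at a time, but the adjusted p was then 0.0848 to 0.197 with edgeR. The call was also lost without the filter on low counts (adjusted p = 0.0552, edgeR). With the replicate block, which in tumors rests on numbers 2 and 3 alone, the adjusted p was 0.340 (edgeR). The groups were far apart, and cultured cells had 254 CPM with midostaurin and 249 CPM with DMSO. Of the 11 inhibitor genes tested, 8 lay above 0, where 52.1% of all genes lay below 0. An unadjusted p under 0.05 was reached by 3 of the 11, where 19.9% of all genes had one. Serpinf1, the inhibitor PEDF, lay at -1.77 ± 0.45 and Cxcl10, a chemokine, at 0.73 ± 0.30. Thbs1, the gene of thrombospondin 1, lay at 0.83 ± 0.53 with overlap. Of 9 basement membrane genes 0 passed (limma-voom called 0, and 2 had an unadjusted p under 0.05), and 6 lay below 0. DESeq2 called 2 of the 9, where it called 9.84% of all genes. Hspg2, the proteoglycan perlecan, lay at -0.60 ± 0.10 (adjusted p = 0.0841, edgeR), Nid1, the linker nidogen, at -0.87 ± 0.24 and Lamc1, a laminin chain, at -0.16 ± 0.10.

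Genes of activated endothelium and lymphatic vessels were few. Of all genes tested 52.1% lay below 0, 19.9% had an unadjusted p under 0.05 with edgeR, and DESeq2 called 9.84%. Of 4 adhesion genes tested, all lay above 0 and 0 had an unadjusted p under 0.05: Vcam1 at 0.89 ± 0.42, Selp at 1.06 ± 0.52, Sele at 0.29 ± 0.51 and Icam1 at 0.23 ± 0.47. The direction rests on midostaurin tumor 3. Without it, 2 of the 4 lay below 0, with a median of -0.0170, where 52.2% of all genes lay below 0. Summed over the list, levels were 300, 879 and 352 CPM in midostaurin tumors, against 301, 250 and 339 CPM in vehicle tumors. Cultured cells had 102 CPM of Sele with midostaurin and 106 CPM with DMSO. Lyve1, a hyaluronan receptor of lymphatic endothelium and some macrophages, measured 0.378, 2.15 and 0.940 CPM in midostaurin tumors, against 39.6, 5.95 and 6.57 CPM in vehicle tumors. The groups did not overlap, and the log2 fold change was -3.93 ± 0.98 (adjusted p = 0.115, edgeR). Of the 2 lymphatic genes tested DESeq2 called 1 and limma-voom 0. Prox1, the lymphatic master factor, had too few counts for the test, and Pdpn, podoplanin, lay at 0.36 ± 0.32. Summed over the lymphatic list, DMSO cells had 53.1 to 520 CPM and vehicle tumors 45.9 to 77.3 CPM. Cultured cancer cells thus express genes of this list, and their part in its tumor values was not tested.

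Genes of other cell types also differed between the tumors. Macrophage genes summed to 353, 807 and 709 CPM in midostaurin tumors, against 1299, 914 and 1210 CPM in vehicle tumors, without overlap. Of these genes 9 of 9 lay below 0, where 52.1% of all genes did. Groups did not overlap for 6 of the 9, where 27.2% of all genes did not. The macrophage sum was lowest in midostaurin tumor 2 and highest in vehicle tumor 1, as were most endothelial genes. Mrc1 lay at -1.68 ± 0.51, C1qc at -0.96 ± 0.37 and Fcgr1 at -0.66 ± 0.20. Red cell genes, which were highest in vehicle tumor 1, had a median log2 fold change of -3.70, with Hba-a1 at -3.81 ± 1.36, Hba-a2 at -3.83 ± 1.39 and Alas2 at -3.70 ± 1.30. Platelet genes summed to 30.2, 32.7 and 21.0 CPM in midostaurin tumors, against 53.4, 13.8 and 21.0 CPM in vehicle tumors, and fibroblast genes to 1563, 1970 and 2615 CPM in midostaurin tumors, against 4361, 1885 and 1702 CPM in vehicle tumors. DMSO cells had 843 to 1574 CPM of the fibroblast list, which cancer cells thus express too, and 6.35 to 26.3 CPM of the macrophage list. With edgeR 0 genes of these lists passed; those with an unadjusted p under 0.05 were 3 of the macrophage, 5 of the red cell, 1 of the platelet, 2 of the fibroblast, 1 of the keratinocyte and 0 of the skeletal muscle list. DESeq2 called 3 macrophage genes, 1 platelet gene and 1 fibroblast gene, and limma-voom 0. Over all genes, 52.1% lay below 0, 19.9% had an unadjusted p under 0.05 with edgeR, and DESeq2 called 9.84%. Of 3 platelet genes tested 2 lay above 0, with Itga2b at 0.88 ± 0.22, Pf4 at -0.43 ± 0.60 and Ppbp at 0.19 ± 0.99. Of 8 fibroblast genes 3 lay above 0, with Dcn at 1.05 ± 0.37, Dpt at -1.37 ± 0.55 and Fap at -0.68 ± 0.38. Of 8 skeletal muscle genes 5 lay above 0, but 0 with limma-voom, with Acta1 at 0.78 ± 1.90, Ttn at 1.58 ± 1.65 and Tnni2 at -0.40 ± 0.56. Krt10 was the keratinocyte gene tested, at -3.04 ± 1.24 with its highest level in vehicle tumor 2. The part of these cells in the vascular values was not tested.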

How the data were processed

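RNA of CT26 cells and CT26 subcutaneous tumors was sequenced from poly(A)-selected libraries made with a directional kit, per the labels' protocols. The authors deposited whole-number counts per gene, 1 table for cells and 1 for tumors. FastQC 0.11.2, Bowtie2 2.3.4 and RSEM are named with mm10, per the submitters' processing notes. The annotation and strand setting of the counting are not given in the sources used here. Symbols came from a table of gene identifiers, in which 181 of 55335 had none, and exon lengths from a GENCODE annotation of mm10. Counts were tested as deposited with edgeR 4.0.16 in R 4.3.3 (filterByExpr, TMM, quasi-likelihood F-test, Benjamini-Hochberg over all genes tested, threshold 0.05). DESeq2 1.42.0, limma-voom (limma 3.58.1), other scalings, no filter, a replicate block and leaving out each library were alternatives. The tests were checked on simulated counts. CPM are TMM-scaled, and log values have 0.5 CPM added where stated.

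The labels number treated tumors 1 to 3 and the table columns 2 to 4. Columns 2 and 3 were matched by number, and column 4 is called midostaurin tumor 4 and used as a member of its group. The members, the 13 other lists and the rule for named genes were chosen with earlier results of these data known. That rule names every member, every gene of the other lists past the threshold, in each list the up to 3 genes with the smallest p among those with a mean of at least 1 CPM in tumors, and Vegfa, Pdgfb, Pdgfrb, Acta2, Thbs1 and Thbs2. Icam1, Prox1 and the genes overlapping Nos3 were added once their values were known. In cells, libraries with the same number departed from their group means together (correlations over genes of 0.90, 0.72 and 0.70). Libraries 2 and 3 of opposite groups also correlated, at 0.53 and 0.55. By the data, and not by the labels, the numbers thus pair the cell libraries, less clearly for 2 and 3 than for 1.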

Additional observations from a re-analysis of the deposited data

How the results depend on the processing

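The number of genes called in tumors was 7 with edgeR and TMM, 8 with RLE size factors, 0 without the filter on low counts, 1426 with DESeq2, 16 with limma-voom, and 0 to 1 with 1 tumor left out. Among the members DESeq2 called 2 endothelial genes and 1 mural gene, and every other alternative run called 0 of either. In cells DESeq2 called 2 genes, limma-voom 2 and the replicate block 8, with 0 members among them.

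The tumor numbers 2 and 3 are shared by both groups, but deviations of same-numbered tumors correlated at 0.15 and -0.19, so the numbers do not pair the tumors. Number 1 was found among vehicle tumors alone and number 4 among midostaurin tumors alone. In the replicate block these 2 tumors therefore have no weight, and the comparison rests on tumors 2 and 3 of each group. The replicate block called 0 genes in tumors, 5 endothelial and 1 mural members had an unadjusted p under 0.05, where 9.99% of all genes had one, and the endothelial median log2 fold change was 0.0203. Ecscr and Notch3 were not among those members. The block, in which vehicle tumor 1 has no weight, turned Tek to 0.0801, Plvap to 0.13 and Aplnr to 0.95. Leaving out vehicle tumor 1 gave 0.46, 0.34 and 0.97 for these genes. Without vehicle tumor 1 and midostaurin tumor 2 together, chosen after seeing the data, 0 genes were called. An unadjusted p under 0.05 was then reached by 6 endothelial and 1 mural members, where 12.5% of all genes had one. Below 0 lay 4 endothelial and 3 mural members, where 51% of all genes did, and the medians were 0.44 and 0.16. Higd1b, which had enough counts in this fit, lay at -0.52 and is left out of these mural values. Upper-quartile scaling turned Pecam1 to -0.0134 and Emcn to -0.0152, and limma-voom turned Cldn5 to -0.0424 and Des to -0.21. The cause of the turns under upper-quartile scaling and limma-voom was not tested.

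With 1 tumor left out at a time, 2 to 5 endothelial members had an unadjusted p under 0.05, 8 to 20 lay below 0 and their median ran from -0.38 to 0.22. Of mural members 1 to 3 had such a p, and their median ran from -0.51 to -0.07. In these fits 14.3% to 17.4% of all genes had such a p, and 49.1% to 52.2% lay below 0. Higd1b, which had enough counts in these fits, ran from -1.43 to -0.79 and is left out of the mural values. The log2 fold changes of 18 members changed sign under some alternative. With 1 tumor left out they ran from -0.16 to 0.34 for Pecam1, -0.31 to 0.24 for Cdh5, -0.18 to 0.12 for Flt1, -0.91 to 0.46 for Tek, -0.45 to 0.18 for Tie1, -0.22 to 0.36 for Emcn, -0.39 to 0.59 for Cldn5, -0.41 to 0.34 for Plvap and -0.44 to 0.0540 for Egfl7. In the same fits they ran from -0.76 to 0.10 for Sox17, -0.26 to 1.91 for Angpt1, -0.19 to 0.38 for Apln, -1.48 to 0.97 for Aplnr, -0.47 to 0.0416 for Dll4, -0.44 to 0.23 for Abcc9, -0.54 to 0.0353 for Mcam, -0.76 to 0.15 for Myh11 and -1.52 to 1.57 for Des. The sign held in all 12 alternatives (leaving out the pair of tumors aside) for 12 of 26 endothelial and 4 of 8 mural members, Nos3, Esm1, Ecscr, Kdr, Eng, Cspg4 and Notch3 among them. With edgeR and 1 tumor left out, the adjusted p of Nos3 was 0.157 to 0.261 and that of Cspg4 0.171 to 0.308. Cspg4, Angpt1 and Higd1b had few counts, which limits their precision, and 3 libraries a group limit the rest.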
